A study of Mus musculus with 4 samples.

Results

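The genes described here are the mouse hair keratins and keratin-associated proteins, 79 of the 22524 genes in the deposited count tables. They were chosen by gene symbol, with earlier results of these data known, and no measured value entered the rule. They are 14 keratins of the hair shaft, 8 keratins of the inner root sheath, the companion layer keratin Krt75, and the 56 genes whose symbols start with Krtap. GENCODE M21 annotates 77 of them as protein-coding, Krt74 as a transcribed unitary pseudogene and Krtap19-9a as a processed pseudogene.

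RNA was sequenced from 4 libraries of sorted mouse skin cells, 2 labelled Ezh2Y646N and 2 labelled NrasQ61K. All mice carried NrasQ61K under the tyrosinase promoter (Tyr::NrasQ61K), the tamoxifen-inducible recombinase Tyr::CreERT2 and the reporter R26R-LSL-tdTomato. The Ezh2Y646N group also had the conditional allele ColA1-LSL-Ezh2Y646N, a mutant form of the histone methyltransferase EZH2, and the NrasQ61K group was its control without that allele. Tamoxifen was given to the animals, and tdTomato-positive cells of pre-tumorigenic dermal hyperplasia were collected by fluorescence-activated sorting. Recombination was therefore directed to cells with tyrosinase promoter activity, that is, melanocytic cells. The sources used here give neither the age of the mice nor whether the libraries of a group came from separate animals. The Ezh2Y646N libraries differed in Y-linked genes, as given further on, which repeats of a single animal would not. For NrasQ61K no such difference was seen, and the spread between its libraries, which the p-values measure, may be technical.

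A growing hair is built from concentric layers of keratinocytes. The cortex and cuticle of the shaft fill with cysteine-rich hair keratins, in which a type I chain pairs with a type II chain, and with keratin-associated proteins that crosslink the filaments. The inner root sheath moulds the shaft with its own keratins and is later degraded, and the flat companion layer, marked by Krt75, separates it from the outer root sheath. Melanocytes of the hair bulb lie among the precursors of the shaft and pass pigment to them.

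Total counts ranged from 14808801 to 20600297 per library, and 14265 genes passed the filter on low counts. Levels are given in CPM, that is, counts divided by the TMM-adjusted library size and multiplied by 1e6. The melanocyte list of 11 genes was present in every library, with summed levels of 4253 and 4297 CPM in Ezh2Y646N and 3699 and 4001 CPM in NrasQ61K. Gpnmb, which is part of that sum, was at 373 and 327 CPM in Ezh2Y646N and at 1044 and 544 CPM in NrasQ61K. Of the 11 genes, 9 had a log2 fold change of Ezh2Y646N over NrasQ61K above 0 and 2, Gpnmb and Kit, below 0. The melanin enzyme gene Dct was measured at 2203 and 2757 CPM in Ezh2Y646N and at 1486 and 2002 CPM in NrasQ61K. Keratinocyte RNA was present beside it in all 4 libraries. The summed level of 11 suprabasal epidermal genes was 42195 and 29957 CPM in Ezh2Y646N, against 3269 and 8660 CPM in NrasQ61K. Ezh2Y646N library 2 stood apart from the other 3 libraries in its Y-linked genes: Ddx3y, Uty, Eif2s3y and Kdm5d had 0 to 2 counts there and at least 918 in each of the others. Calls among the 79 genes that were lost without that library are named as such. For called genes outside the 79 this is not given.

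The promoters of these genes are shown first, because they hold a sequence feature that most of the genes share and that the choice by symbol did not use. RefSeq promoters on GRCm38.p6, from 250 bases before the transcript start to 50 after it, were matched for 68 of the 79 genes. The 11 without a match include the shaft keratins Krt33a, Krt35, Krt81, Krt83 and Krt86. The promoter shares therefore do not cover these keratins, several of which were called lower. The letters TATAAA on either strand stood in 55 of the 68 promoters (80.9%), against 13.6% of all 32851 promoters in the table and 6 of 20 promoters of other keratins. All 7 inner root sheath promoters held it, as did 6 of 9 hair shaft promoters and 42 of 51 Krtap promoters, while the Krt75 promoter did not. Counted on the gene strand with the first base 40 to 20 bases before the start, TATAAA was present in 40 of 68 promoters (58.8%), against 1.99% of all promoters.

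Promoters of 8 genes are printed to show abundant keratins of the inner root sheath and the companion layer keratin, 2 neighbouring hair shaft genes that share a motif, the shaft keratin whose level did not separate the groups (Krt84), and 2 of the 3 Krtap genes of highest level. They are Krt25 (chr11:99322902-99323201), Krt71 (chr15:101743048-101743347), Krt75 (chr15:101573855-101574154), Krt31 (chr11:100050502-100050801), Krt34 (chr11:100041505-100041804), Krt84 (chr15:101532771-101533070), Krtap8-1 (chr16:89487903-89488202) and Krtap11-1 (chr16:89571134-89571433), all on the minus strand and written 5′ to 3′ along the gene. Capitals mark TATAAA and CTTTGA on either strand.
Krt25: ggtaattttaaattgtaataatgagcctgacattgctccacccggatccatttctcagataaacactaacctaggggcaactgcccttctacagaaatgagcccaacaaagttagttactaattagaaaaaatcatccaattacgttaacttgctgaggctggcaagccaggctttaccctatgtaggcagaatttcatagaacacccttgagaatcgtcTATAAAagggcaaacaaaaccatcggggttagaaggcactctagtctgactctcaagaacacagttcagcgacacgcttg
Krt71: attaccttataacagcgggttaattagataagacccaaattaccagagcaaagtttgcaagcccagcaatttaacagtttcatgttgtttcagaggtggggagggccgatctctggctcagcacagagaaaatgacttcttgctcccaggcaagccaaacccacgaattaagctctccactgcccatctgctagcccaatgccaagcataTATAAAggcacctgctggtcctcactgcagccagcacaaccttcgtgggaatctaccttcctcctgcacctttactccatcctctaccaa
Krt75: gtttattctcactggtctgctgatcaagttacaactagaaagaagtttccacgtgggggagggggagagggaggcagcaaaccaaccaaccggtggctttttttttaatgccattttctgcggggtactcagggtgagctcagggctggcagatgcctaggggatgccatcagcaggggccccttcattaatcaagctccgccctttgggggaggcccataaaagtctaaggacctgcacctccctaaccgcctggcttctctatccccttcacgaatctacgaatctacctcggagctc
Krt31: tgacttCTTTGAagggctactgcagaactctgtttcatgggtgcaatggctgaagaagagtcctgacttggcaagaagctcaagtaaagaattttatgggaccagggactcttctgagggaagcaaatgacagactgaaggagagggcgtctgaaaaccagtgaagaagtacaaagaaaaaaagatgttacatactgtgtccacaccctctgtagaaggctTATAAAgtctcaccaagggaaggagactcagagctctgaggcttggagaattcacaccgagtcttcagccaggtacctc
Krt34: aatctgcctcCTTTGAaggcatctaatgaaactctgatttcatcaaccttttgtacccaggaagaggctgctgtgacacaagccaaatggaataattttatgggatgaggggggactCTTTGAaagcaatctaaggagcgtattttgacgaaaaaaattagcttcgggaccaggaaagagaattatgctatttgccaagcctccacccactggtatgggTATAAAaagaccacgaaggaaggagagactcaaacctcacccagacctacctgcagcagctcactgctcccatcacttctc
Krt84: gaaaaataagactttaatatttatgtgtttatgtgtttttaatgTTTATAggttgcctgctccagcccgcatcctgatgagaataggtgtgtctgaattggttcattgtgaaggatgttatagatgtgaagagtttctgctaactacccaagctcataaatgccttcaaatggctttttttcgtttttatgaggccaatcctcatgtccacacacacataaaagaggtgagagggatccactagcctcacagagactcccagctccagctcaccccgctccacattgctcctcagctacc
Krtap8-1: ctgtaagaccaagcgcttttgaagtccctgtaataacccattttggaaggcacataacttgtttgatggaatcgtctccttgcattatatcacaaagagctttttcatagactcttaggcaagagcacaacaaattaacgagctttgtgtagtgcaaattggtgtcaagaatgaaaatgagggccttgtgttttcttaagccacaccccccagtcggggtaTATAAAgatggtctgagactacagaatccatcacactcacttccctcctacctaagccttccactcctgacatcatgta
Krtap11-1: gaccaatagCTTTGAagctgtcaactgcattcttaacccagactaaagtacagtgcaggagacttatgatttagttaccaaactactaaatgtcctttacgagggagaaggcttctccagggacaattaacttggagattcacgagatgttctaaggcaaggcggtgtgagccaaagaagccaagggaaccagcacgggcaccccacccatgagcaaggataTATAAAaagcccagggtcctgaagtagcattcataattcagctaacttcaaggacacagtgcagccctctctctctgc

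In these sequences the first base of TATAAA on the gene strand lay at position -30 of Krt25, -40 of Krt71, -29 of Krt31, -31 of Krt34, -29 of Krtap8-1 and -28 of Krtap11-1, counted from the transcript start. Krt84 held it on the opposite strand only. The letters CTTTGA, a core of the LEF1 recognition sequence, were present in 21 of 68 promoters on either strand (30.9%), against 16.0% of all promoters. On the gene strand with the first base 250 to 240 bases before the start, CTTTGA was found in 7 of 68 promoters (10.3%), against 0.387% of all promoters. Of those 7, 4 were the neighbouring hair shaft keratins Krt31, Krt32, Krt33b and Krt34, out of 9 shaft promoters matched. Both position windows were chosen after the positions had been seen. TTTATNN, a motif of the HOXC13 type, was found on either strand in 62 of 68 promoters (91.2%), against 39.9% of all. It overlaps the reverse complement of TATAAA, and with TATAAA masked the share was 54.4%, against 33.2% of all promoters. A match describes letters in the window and is not evidence of binding.

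The summed RNA of the hair keratins and Krtap genes was lower in both Ezh2Y646N libraries than in both NrasQ61K libraries, in each of the 4 classes. The summed level of all 79 genes was 328 and 169 CPM in the Ezh2Y646N libraries, against 2284 and 1085 CPM in the NrasQ61K libraries. The groups did not overlap. The sum averaged 248 ± 113 CPM in Ezh2Y646N and 1685 ± 848 CPM in NrasQ61K (SD, n = 2 each), and the mean of NrasQ61K was 6.78 times that of Ezh2Y646N. As a share of all counts this was 0.0315% (95% Wilson interval 0.0307 to 0.0324%) and 0.0162% (0.0155 to 0.0168%) in Ezh2Y646N, and 0.244% (0.242 to 0.247%) and 0.110% (0.108 to 0.111%) in NrasQ61K. These intervals cover counting error only. In sorted bulk cells, fewer cells of a type and less RNA per cell cannot be told apart.

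Of the 79 genes, 58 had a count in at least 1 library, 27 passed the filter on low counts and 52 did not. Among the 27, edgeR's quasi-likelihood test called 8 lower in Ezh2Y646N and 0 higher at an adjusted p under 0.05, where 0.673% of all genes tested were called lower and 1.1% higher. DESeq2 called 20 lower and 0 higher, against 2.79% of all genes lower. edgeR did not call the other 19, of which DESeq2 called 12. At an unadjusted p under 0.05, 24 of the 27 were lower and 0 higher in edgeR, against 7.02% of all genes lower and 7.28% higher. Both Ezh2Y646N libraries lay below both NrasQ61K libraries for 24 of the 27, against 23.1% of all genes tested, and the groups overlapped for Krt84, Krt72 and Krtap17-1. The count depended on single libraries. When 1 library at a time was left out, it changed in both directions, and so did the number of calls over all genes tested.

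The median log2 fold change of Ezh2Y646N over NrasQ61K was -3.27 over the 27 genes and -0.04 over all genes tested. It was below 0 for 26 of the 27, against 54.0% of all genes, and at or under -2 for 24, against 2.03%. Without Ezh2Y646N library 2 the class medians were -2.91 for the hair shaft, -2.77 for the inner root sheath, -2.85 for Krt75 and -3.53 for the Krtap genes. Without NrasQ61K library 1 they were -2.46, -1.70, -2.66 and -3.57 in the same order. Leaving out NrasQ61K library 1 moved the fold change of 18 genes of 26 by over 1.5 times, all 18 nearer to 0 or above it, and leaving out Ezh2Y646N library 2 moved that of 12 of 26. A gene could pass the filter through its NrasQ61K level alone, and 4 did so with both Ezh2Y646N libraries under the filter level: Krt34, Krtap3-1, Krtap13-1 and Krtap15. Others, among them Krt33b, Krt36, Krt82 and Krt86, had 1 Ezh2Y646N library under that level and also needed NrasQ61K to pass.

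**Figure D1:**
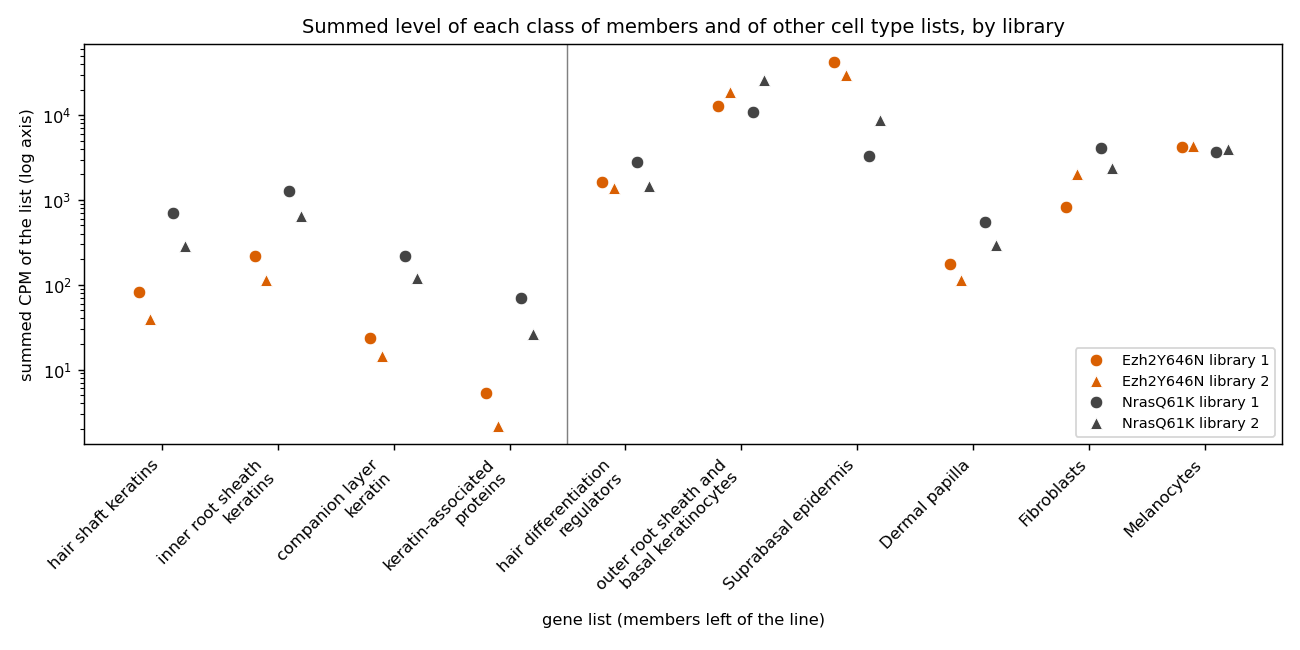
Summed level (CPM, log axis) of each class of hair genes, left of the line, and of other cell type lists, right of it, with 1 point per library. Each class of hair genes lies lower in both Ezh2Y646N libraries than in both NrasQ61K libraries, and the suprabasal epidermal list lies higher, at 42195 and 29957 CPM against 3269 and 8660 CPM.

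The 2 libraries of a group also differed from each other in one direction. Ezh2Y646N library 1 was above Ezh2Y646N library 2 for 20 of the 27 tested genes, against 50.4% of all genes tested. NrasQ61K library 1 was above NrasQ61K library 2 for 26 of the 27, against 49.6% of all genes. The excess of NrasQ61K library 1 over library 2 was uneven: it was 12.7-fold for Krt26, 11.5-fold for Krt72, 3.94-fold for Krt73 and 3.22-fold for Krt28 and 2.17-fold for Krt25, but 1.23-fold for Krt71 and 1.07-fold for Krt27.

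**Figure D2:**
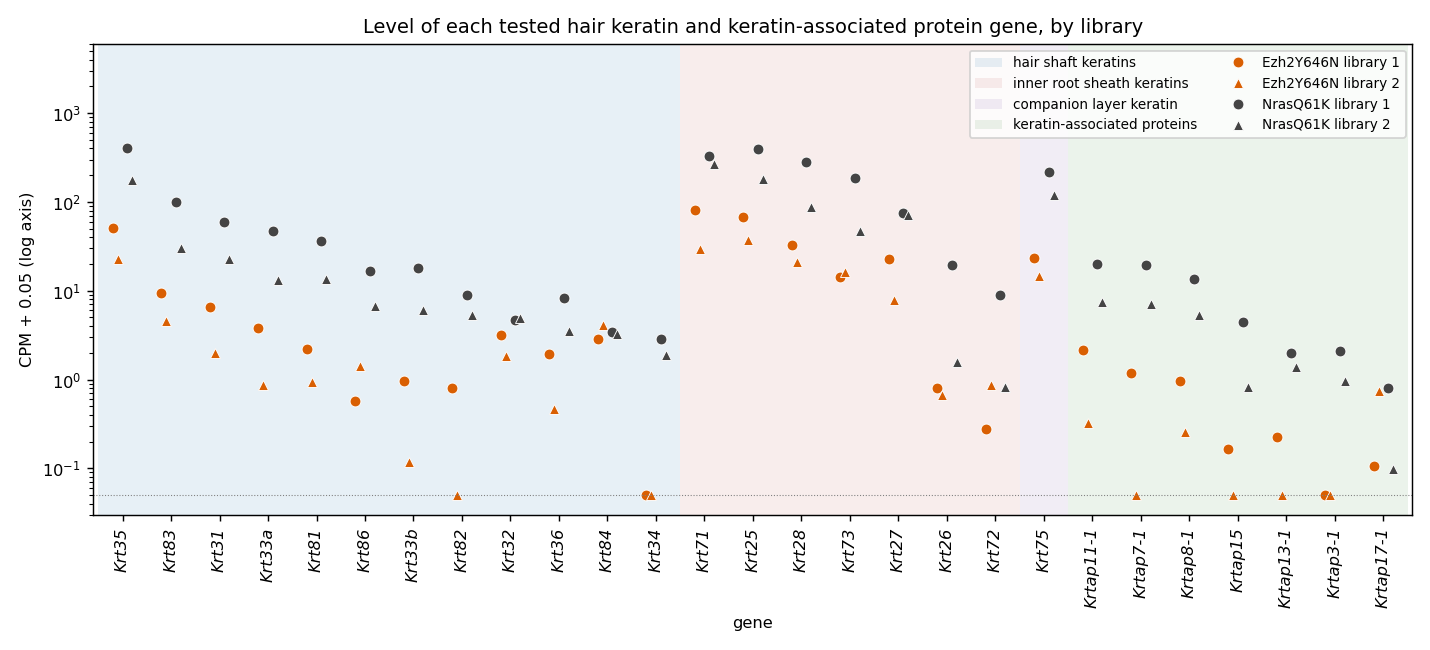
Level of each of the 27 tested genes (CPM plus 0.05, log axis) in the 4 libraries, grouped by class, with the dotted line at 0 counts. Krt75 shows the groups apart at 23.5 and 14.4 CPM in Ezh2Y646N against 218 and 120 CPM in NrasQ61K, whereas the points of Krt84 lie between 2.82 and 4.08 CPM in all libraries.

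Krt75, the companion layer keratin, lies on chromosome 15 (101563345 to 101573904). It was measured at 23.5 and 14.4 CPM in Ezh2Y646N and at 218 and 120 CPM in NrasQ61K. The groups were far apart: the lower NrasQ61K library was 5.10 times the higher Ezh2Y646N library. Krt75 fell in Ezh2Y646N, with a log2 fold change of -3.15 ± 0.38 (SE) and an adjusted p of 0.0243 in edgeR. It was the one gene of the 79 called lower in all 12 alternative analyses. Gm44460 overlaps it on the other strand, and since the strand setting of the counting is not given, reads from the overlap cannot be told apart. In the annotated transcripts, 2.49% of the 50-base stretches of Krt75 also occur in Gm44460.

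Among the 14 hair shaft keratins, 12 were tested, 5 fell in Ezh2Y646N and the median log2 fold change was -3.45. The summed level was 82.1 and 38.95 CPM in Ezh2Y646N and 710 and 285 CPM in NrasQ61K, a ratio of means of 8.22 in favour of NrasQ61K. The type I and type II chains differed by like amounts: type I keratins summed to 66.6 and 28.0 CPM in Ezh2Y646N and 545 and 227 CPM in NrasQ61K, and type II keratins to 15.5 and 10.9 CPM in Ezh2Y646N and 165 and 58.6 CPM in NrasQ61K. Their ratio per kilobase of exon overlapped between groups, at 3.94 and 2.44 in Ezh2Y646N and 2.94 and 3.48 in NrasQ61K. The type II sum holds neither Krt85, which was not analysed here, nor Krt87, which is not in the set. Krt87 shares sequence with Krt81 and averaged 20.9 CPM in Ezh2Y646N and 179 CPM in NrasQ61K. The ratio is therefore not that of all type I over all type II chains.

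Krt35 (chromosome 11, 100092193 to 100096241), known in human follicles as an early type I keratin of the hair matrix and cuticle, was the most abundant of the shaft keratins. It was measured at 50.4 and 22.997 CPM in Ezh2Y646N and at 405 and 174 CPM in NrasQ61K. Both Ezh2Y646N libraries lay below both NrasQ61K libraries, and the log2 fold change was -2.98 ± 0.50 (adjusted p = 0.0377, edgeR). The call was lost without either Ezh2Y646N library.

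The type II cortex keratins Krt81, Krt86 and Krt83 lie side by side on chromosome 15, from 101459061 to 101491512, and all 3 fell. Krt81 was measured at 2.18 and 0.898 CPM in Ezh2Y646N and at 35.8 and 13.4 CPM in NrasQ61K, with a log2 fold change of -3.97 ± 0.62 (adjusted p = 0.0323, edgeR). Krt86 was measured at 0.517 and 1.38 CPM in Ezh2Y646N and at 16.7 and 6.76 CPM in NrasQ61K (log2 fold change -3.63 ± 0.66, adjusted p = 0.0457, edgeR). Krt83 was measured at 9.25 and 4.56 CPM in Ezh2Y646N and at 100 and 29.9 CPM in NrasQ61K (log2 fold change -3.23 ± 0.60, adjusted p = 0.0498, edgeR). In all 3 the groups were separate, and NrasQ61K library 1 was the highest library. limma voom called none of the 3, with adjusted p-values of 0.0942, 0.120 and 0.0953. In edgeR, Krt81 and Krt83 lost the call without either Ezh2Y646N library, and Krt86 without Ezh2Y646N library 1 and without NrasQ61K library 1. Without Ezh2Y646N library 2 the log2 fold change of Krt86 was -4.49. These genes are near copies of each other: 37.7% of the 50-base stretches of Krt81, 43.3% of those of Krt86 and 22.1% of those of Krt83 also occur in another gene, so the division of reads among them is uncertain.

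Krt34 (100037347 to 100041554 on chromosome 11), a type I cortex keratin, had 0 counts in both Ezh2Y646N libraries. In NrasQ61K it had 45 and 38 counts (2.84 and 1.82 CPM). It was at least 24.0-fold lower in Ezh2Y646N, taking 3 counts over the group as the limit of 0 counts, and its adjusted p was 0.0499 in edgeR. The call was lost when libraries were scaled by DESeq2's size factors (RLE), without Ezh2Y646N library 1, without Ezh2Y646N library 2 and without NrasQ61K library 1. The neighbouring type I keratins Krt31 and Krt33a showed differences of like size that did not pass the test. Krt31, a cortex keratin, was measured at 6.44 and 1.93 CPM in Ezh2Y646N and at 59.4 and 22.6 CPM in NrasQ61K (log2 fold change -3.27, adjusted p = 0.0520, edgeR). Krt33a was measured at 3.74 and 0.829 CPM in Ezh2Y646N and at 46.9 and 13.1 CPM in NrasQ61K (log2 fold change -3.69, adjusted p = 0.0678, edgeR). In both genes the groups did not overlap. Krt34 shares 33.1% of its 50-base stretches with other genes, Krt31 28.1% and Krt33a 17.8%.

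edgeR called none of the remaining shaft keratins, of which DESeq2 called Krt33b and Krt82 lower. Krt33b was measured at 0.920 and 0.069 CPM in Ezh2Y646N and at 17.9 and 5.95 CPM in NrasQ61K (log2 fold change -4.51, adjusted p = 0.0600, edgeR). The cuticle keratin Krt82 had 13 and 0 counts in Ezh2Y646N and 139 and 109 counts in NrasQ61K (log2 fold change -4.14, adjusted p = 0.0984, edgeR). Krt36 had 33 and 6 counts in Ezh2Y646N and 130 and 73 counts in NrasQ61K (log2 fold change -2.31, adjusted p = 0.214, edgeR). In these 3 genes the groups were separate. Krt39 did not pass the filter, with 0 counts in either Ezh2Y646N library and 8 and 9 counts in NrasQ61K, and was at least 4.93-fold lower in Ezh2Y646N. Krt40 had 1 count in all.

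Krt32 and Krt84 differed from the other shaft keratins in their values. Krt32, a type I cuticle keratin, was measured at 3.10 and 1.80 CPM in Ezh2Y646N and at 4.61 and 4.94 CPM in NrasQ61K (log2 fold change -0.96 ± 0.50, adjusted p = 0.469, edgeR). Krt84, known in humans as a type II keratin of the filiform papillae of the tongue, was measured at 2.82 and 4.08 CPM in Ezh2Y646N and at 3.41 and 3.21 CPM in NrasQ61K. Its groups overlapped, with a log2 fold change of 0.05 ± 0.49 (adjusted p = 0.977, edgeR). Whether these 2 keratins differ from the rest of the class was not tested.

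**Figure D3:**
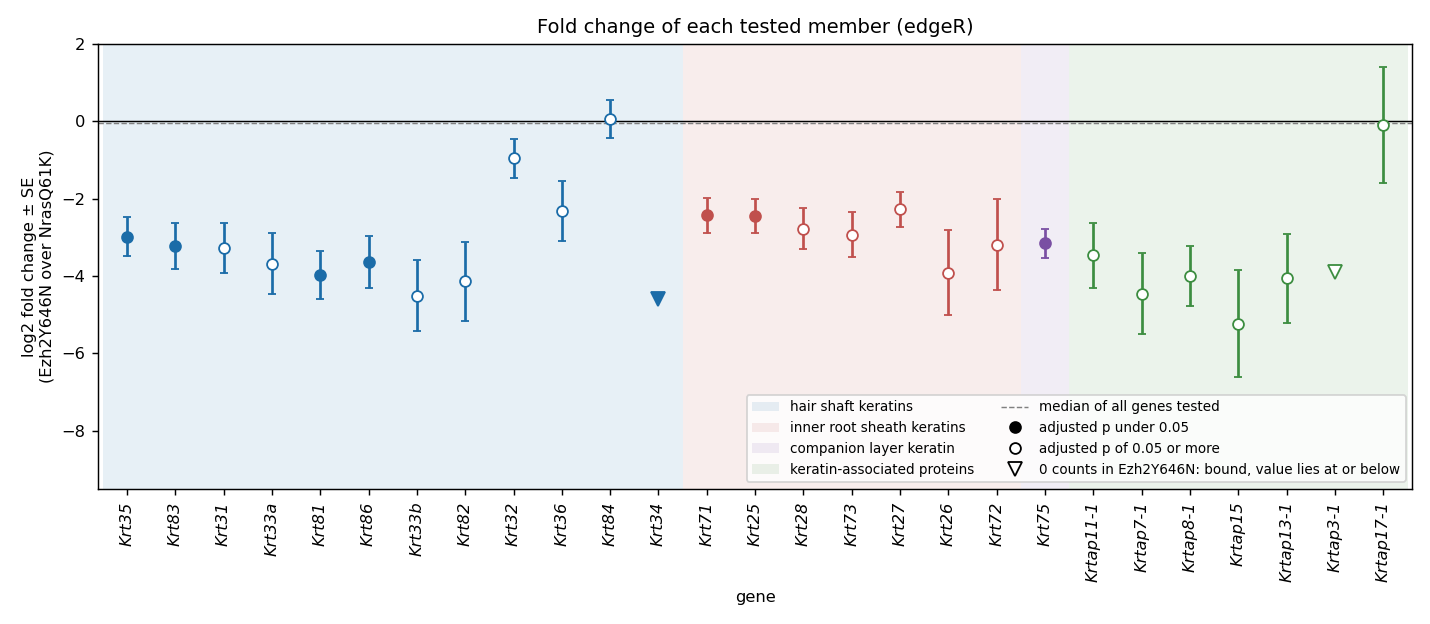
Log2 fold change of Ezh2Y646N over NrasQ61K with its standard error for each tested gene, by class, with filled symbols at an adjusted p under 0.05 and the median of all genes tested (-0.04) dashed. Triangles give the bound for Krt34 and Krtap3-1, which had 0 counts in Ezh2Y646N; Krt84 and Krtap17-1 lie at 0.05 and -0.09, near 0.

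Among the 8 inner root sheath keratins, 7 were tested, 2 fell in Ezh2Y646N and the median log2 fold change was -2.78. The summed level was 217 and 113 CPM in Ezh2Y646N and 1287 and 654 CPM in NrasQ61K, with a ratio of means of 5.87 in favour of NrasQ61K. Krt25 (99315516 to 99322951 on chromosome 11), a type I keratin of all layers of the inner root sheath, was measured at 66.7 and 37.4 CPM in Ezh2Y646N and at 390 and 180 CPM in NrasQ61K. Its groups were separate, and the log2 fold change was -2.45 ± 0.43 (adjusted p = 0.0418, edgeR). Krt71 (101733949 to 101743109 on chromosome 15), a type II partner whose mutations give curly coats in mice, was measured at 80.9 and 29.3 CPM in Ezh2Y646N and at 329 and 267 CPM in NrasQ61K. Its log2 fold change was -2.43 ± 0.45 (adjusted p = 0.0482, edgeR). Krt25 lost the call without either Ezh2Y646N library, with adjusted p-values of 0.0674 without library 1 and 0.117 without library 2 in edgeR. Krt71 lost it with RLE scaling, without Ezh2Y646N library 2 (log2 fold change -1.89), without NrasQ61K library 1 and without NrasQ61K library 2 (adjusted p = 0.0518, 0.0505, 0.408 and 0.196, edgeR).

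The other tested inner root sheath keratins did not pass the edgeR test, 3 of them narrowly, whereas DESeq2 called all 7 tested members of the class lower. Krt28 was measured at 32.4 and 20.99 CPM in Ezh2Y646N and at 279 and 86.7 CPM in NrasQ61K (log2 fold change -2.78, adjusted p = 0.0501, edgeR). Krt27 was measured at 22.4 and 7.80 CPM in Ezh2Y646N and at 75.8 and 70.9 CPM in NrasQ61K (log2 fold change -2.27, adjusted p = 0.0540, edgeR). Krt73 was measured at 14.1 and 16.1 CPM in Ezh2Y646N and at 184 and 46.7 CPM in NrasQ61K (log2 fold change -2.93, adjusted p = 0.0535, edgeR). All 3 had separate groups. The least abundant tested pair was uneven within NrasQ61K. Krt26 was measured at 0.747 and 0.622 CPM in Ezh2Y646N and at 19.5 and 1.53 CPM in NrasQ61K (adjusted p = 0.137, edgeR). Krt72 was measured at 0.230 and 0.829 CPM in Ezh2Y646N and at 8.85 and 0.767 CPM in NrasQ61K (adjusted p = 0.263, edgeR), so that NrasQ61K library 2 lay below Ezh2Y646N library 2. Krt74 had 0 counts in either Ezh2Y646N library and 14 and 4 counts in NrasQ61K, and was at least 5.21-fold lower in Ezh2Y646N.

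The proportions of the classes differed less than their levels. Counts per kilobase of exon of the inner root sheath keratins over those of the hair shaft keratins were 2.92 and 3.28 in Ezh2Y646N and 1.98 and 2.51 in NrasQ61K. Krt75 over the inner root sheath keratins was 0.0644 and 0.0760 in Ezh2Y646N and 0.101 and 0.110 in NrasQ61K. Krtap genes over hair shaft keratins were 0.180 and 0.147 in Ezh2Y646N and 0.282 and 0.283 in NrasQ61K. Each ratio had separate groups, but with 2 libraries a group no permutation test of a single value can reach 0.05, and none was made.

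Per kilobase of exon, the same 4 genes had the highest mean levels of the 79 in both groups. Krt25 was at 26.2 CPM per kilobase in Ezh2Y646N and 143 in NrasQ61K, Krt71 at 25.2 in Ezh2Y646N and 136 in NrasQ61K, Krt28 at 16.4 in Ezh2Y646N and 113 in NrasQ61K, and Krt35 at 15.3 in Ezh2Y646N and 121 in NrasQ61K. Krt25 was above Krt28 and Krt35 in each library, while the order of Krt25 and Krt71, and of Krt28 and Krt35, changed between libraries. Whether these levels differ was not tested. Krt27 followed at 9.75 CPM per kilobase in Ezh2Y646N and 47.3 in NrasQ61K, Krt73 at 6.96 in Ezh2Y646N and 53.2 in NrasQ61K, and Krt75 at 5.81 in Ezh2Y646N and 51.7 in NrasQ61K. The Krtap genes of highest level in NrasQ61K were Krtap7-1 (21.5 CPM per kilobase), Krtap8-1 (16.3) and Krtap11-1 (13.6).

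The 56 Krtap genes had few counts, and fewest in Ezh2Y646N. Their summed level was 5.23 and 2.14 CPM there (91 and 31 counts), against 68.9 and 26.1 CPM in NrasQ61K (1090 and 544 counts), a ratio of means of 12.9. A count was seen for 10 and 9 of the 56 genes in the Ezh2Y646N libraries and for 32 and 19 in the NrasQ61K libraries. Of the 56, 21 had 0 counts everywhere, 2 had counts in Ezh2Y646N only, 21 in NrasQ61K only and 12 in both groups. The 2 seen only in Ezh2Y646N were Krtap12-1, with 7 and 0 counts, and Krtap29-1, with 0 and 6, each from 1 library, and Krtap12-1 lies within Tspear on the same strand. Of the 12 seen in both groups, 10 were higher in NrasQ61K when the libraries were pooled.

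Only 7 Krtap genes passed the filter, and edgeR called 0 of them at an adjusted p under 0.05. Without adjustment 6 had p under 0.05, and with DESeq2 3 passed the adjusted threshold, each lower in Ezh2Y646N. Their median log2 fold change was -4.06, or -3.99 with Krtap3-1 at its bound. Krtap3-1, Krtap13-1 and Krtap15 had both Ezh2Y646N libraries under the filter level of 0.602 CPM. Without them the median of the other 4 was -3.73, with 3 of the 4 at an unadjusted p under 0.05 in edgeR. Those 3, Krtap7-1, Krtap8-1 and Krtap11-1, had 1 Ezh2Y646N library under the level and also needed NrasQ61K to pass. The median of the 4 is therefore not free of the choice made by the filter. The high glycine-tyrosine genes Krtap7-1 and Krtap8-1 and the high-sulfur gene Krtap11-1, which lie together on chromosome 16, had the most counts. Krtap8-1 was measured at 0.920 and 0.207 CPM in Ezh2Y646N and at 13.4 and 5.27 CPM in NrasQ61K (log2 fold change -3.99, adjusted p = 0.0507, edgeR). Krtap7-1 was measured at 1.15 and 0 CPM in Ezh2Y646N and at 19.6 and 7.10 CPM in NrasQ61K (log2 fold change -4.45, adjusted p = 0.0896, edgeR). Krtap11-1 was measured at 2.13 and 0.276 CPM in Ezh2Y646N and at 19.9 and 7.43 CPM in NrasQ61K (log2 fold change -3.46, adjusted p = 0.0964, edgeR). The groups were separate in each of these 3, and NrasQ61K library 1 was the highest. Without Ezh2Y646N library 2 their log2 fold changes were -3.34, -3.53 and -2.68.

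The high-sulfur genes Krtap15, Krtap13-1 and Krtap3-1 had fewer counts. Krtap15 had 2 and 0 counts in Ezh2Y646N and 70 and 16 in NrasQ61K, and it overlaps Krtap14 and another annotated gene, so its counts are uncertain. Krtap13-1 had 3 and 0 counts in Ezh2Y646N and 31 and 28 in NrasQ61K. Krtap3-1 had 0 counts in both Ezh2Y646N libraries and 32 and 19 in NrasQ61K, at least 14.8-fold lower in Ezh2Y646N. None of these 3 passed the test, with adjusted p-values of 0.120, 0.144 and 0.0879 in edgeR. Of the genes below the filter, Krtap22-2 had 0 counts in either Ezh2Y646N library and 3 and 23 in NrasQ61K, at least 7.53-fold lower in Ezh2Y646N. Its level in NrasQ61K library 1 was 0.172 times that in NrasQ61K library 2.

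The ultrahigh-sulfur genes, which encode proteins of the hair cuticle and cortex, were the least detected. Of 17 such genes, 11 had 0 counts everywhere, against 5 of 23 high-sulfur genes and 5 of 16 high glycine-tyrosine genes. Their summed level was 0.0575 and 0.691 CPM in Ezh2Y646N and 1.64 and 0.671 CPM in NrasQ61K, with overlapping groups. Krtap17-1 was the only one tested, with 1 and 10 counts in Ezh2Y646N and 12 and 1 in NrasQ61K (log2 fold change -0.09, adjusted p = 0.988, edgeR). Krtap9-3 had 0 counts in either Ezh2Y646N library and 3 and 8 in NrasQ61K, and Krtap4-2 had 0 in either Ezh2Y646N library and 6 and 0 in NrasQ61K. High glycine-tyrosine genes summed to 2.13 and 0.207 CPM in Ezh2Y646N and 34.9 and 14.0 CPM in NrasQ61K, and high-sulfur genes to 3.05 and 1.24 CPM in Ezh2Y646N and 32.3 and 11.5 CPM in NrasQ61K. Copies limit the Krtap counts, and 81.3% of the 50-base stretches of Krtap4-13 occur in another gene.

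The classes differed in their coding sequence, but the high-sulfur group did not keep to its name. Cysteine codons made up 2.49 to 8.43% of hair shaft keratin codons (median 6.56%), 1.72 to 2.24% of inner root sheath keratin codons and 0.726% of Krt75 codons. They made up 27.2 to 41.5% of the codons of the ultrahigh-sulfur genes. Among the high-sulfur genes they made up 4.0% (Krtap15) to 42.8% (Krtap28-13). That range overlapped those of the hair shaft keratins and the ultrahigh-sulfur genes. Glycine and tyrosine codons made up 29.9 to 69.2% of the high glycine-tyrosine genes. Krt84, whose groups overlapped, had the lowest cysteine share of the shaft keratins, 2.49%. Krtap16-3, grouped as high-sulfur by its family number, had 59.3% glycine and tyrosine codons.

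**Figure D4:**
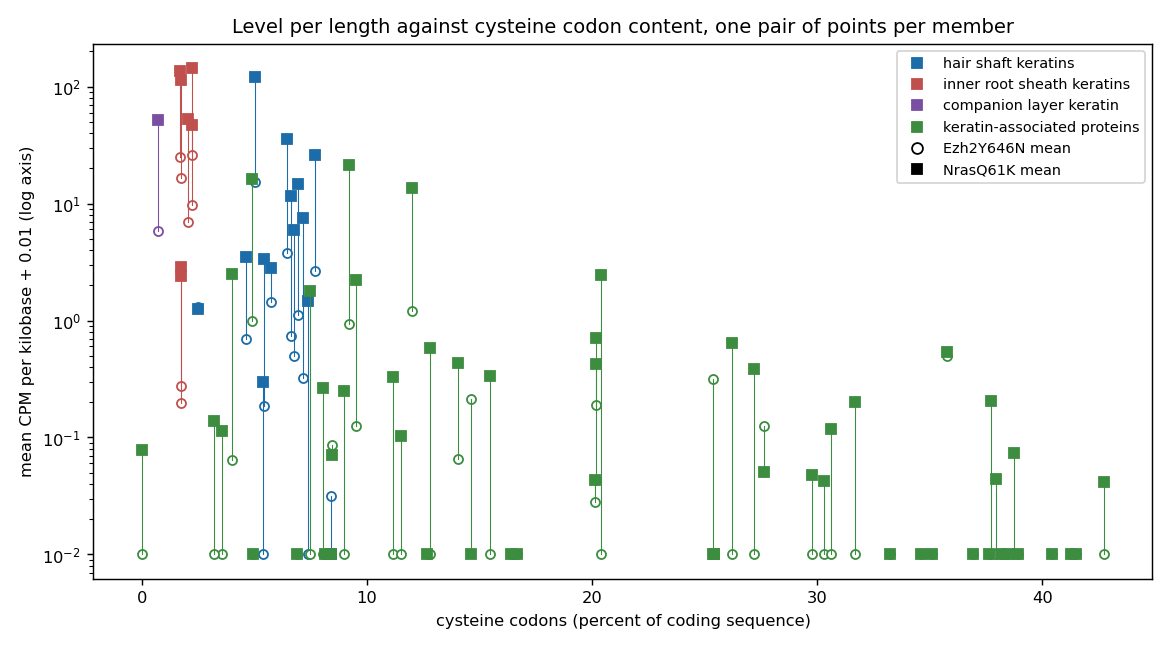
Mean level per kilobase (CPM per kilobase plus 0.01, log axis) against the percentage of cysteine codons, with the Ezh2Y646N mean (circle) and the NrasQ61K mean (square) of each gene joined by a line. Inner root sheath keratins sit at 1.72 to 2.24% cysteine and include the highest levels, and most genes above 27.2% cysteine lie at or near 0.

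Along the chromosomes, the hair keratins stood beside keratins with other values. On chromosome 11, all 13 tested genes of the set had log2 fold changes below 0 and 3 were called lower, while of 12 other tested keratins 5 were below 0 and 7 above 0. The epidermal keratin Krt10 lies next to Krt28 and had a log2 fold change of 2.78 (adjusted p = 0.0514, edgeR). On chromosome 15, 8 of 9 tested genes of the set were below 0 and 5 were called lower. Of 13 other tested keratins there, Krt87 and Krt6a were called lower, and the epidermal keratins Krt77 and Krt78 higher, with log2 fold changes of 3.27 and 3.35. Krt87, which lies near Krt81 and shares sequence with it, averaged 20.9 CPM in Ezh2Y646N and 179 CPM in NrasQ61K (log2 fold change -3.10, adjusted p = 0.0370, edgeR). This view along the clusters and the naming of these neighbours followed after their values were seen.

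**Figure D5:**
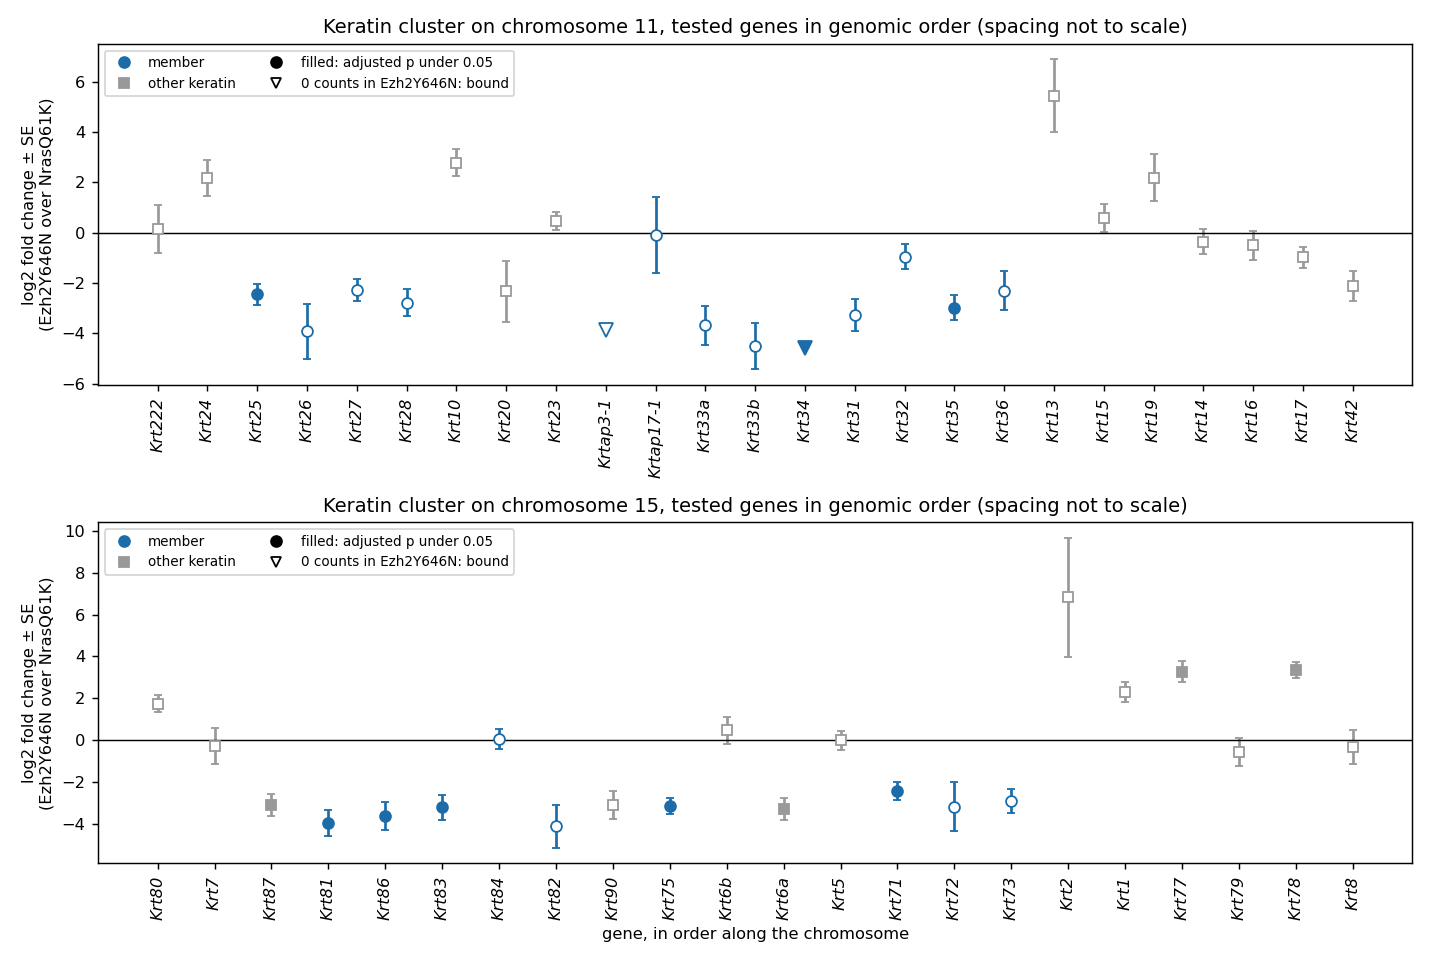
Log2 fold change of Ezh2Y646N over NrasQ61K with its standard error for the tested genes of the keratin clusters on chromosomes 11 and 15, in genomic order and not to scale. Hair keratins and Krtap genes (blue) lie mostly below 0 beside other keratins (grey) that lie on both sides of 0, such as Krt10 at 2.78; triangles are bounds.

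As a share of all keratin counts, the 23 hair keratins made up 0.483% and 0.295% in Ezh2Y646N and 13.9% and 2.90% in NrasQ61K. The other keratins did not move as one: of 25 tested, edgeR called 2 higher and 2 lower, and their median log2 fold change was 0.15. The list of outer root sheath, companion layer and basal keratinocyte genes had overlapping sums. They were 12896 and 18871 CPM in Ezh2Y646N and 10775 and 26158 CPM in NrasQ61K. Of the 12 genes of the list, 3 had separate groups, each lower in Ezh2Y646N, and 9 overlapped. Over all genes tested, 23.1% had both Ezh2Y646N libraries below both NrasQ61K libraries, so the 3 of 12 lie near that share. Krt6a fell, with 65.3 and 52.9 CPM in Ezh2Y646N and 284 and 880 CPM in NrasQ61K (log2 fold change -3.30, adjusted p = 0.0323, edgeR). The basal keratins Krt5 and Krt14 had log2 fold changes of -0.01 and -0.36 (adjusted p = 0.994 and 0.841, edgeR), and both changed sign under other analyses.

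Other genes of hair differentiation were followed as 2 lists. Among 18 further structural and enzyme genes of the shaft and inner root sheath, edgeR called 2 lower and 0 higher, and the median log2 fold change was -2.27. Without adjustment 11 were lower and 2 higher, and DESeq2 called 9 lower and 2 higher. Tchh encodes trichohyalin, the granule protein of the inner root sheath, and was measured at 225 and 90.1 CPM in Ezh2Y646N and at 1128 and 660 CPM in NrasQ61K (log2 fold change -2.51, adjusted p = 0.0499, edgeR). Prr9, a proline-rich gene, was measured at 0.230 and 1.10 CPM in Ezh2Y646N and at 17.8 and 8.01 CPM in NrasQ61K (log2 fold change -4.29, adjusted p = 0.0405, edgeR). Padi4, a peptidylarginine deiminase, was measured at 1.61 and 0.829 CPM in Ezh2Y646N and at 70.0 and 9.40 CPM in NrasQ61K (adjusted p = 0.0507, edgeR). The groups were separate in all 3. Of the 4 genes with a log2 fold change above 0, Mt4, a metallothionein, was measured at 47.8 and 46.4 CPM in Ezh2Y646N and at 22.2 and 22.5 CPM in NrasQ61K (log2 fold change 1.08, adjusted p = 0.0678, edgeR). The transglutaminase gene Tgm1 had a log2 fold change of 1.44 (adjusted p = 0.0999, edgeR), Lipk of 1.13 and Hephl1 of 0.85, and these 4 were named after their values were seen. Krt85, a type II shaft keratin, was not analysed here.

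Among 12 tested regulators of hair differentiation, edgeR called 0 at an adjusted p under 0.05, while without adjustment 8 were lower and 1 higher. DESeq2 called 6 lower and 1 higher. Their median log2 fold change was -1.06. Hoxc13, a homeobox factor that activates hair keratin genes, was measured at 31.3 and 34.4 CPM in Ezh2Y646N and at 118 and 57.9 CPM in NrasQ61K (log2 fold change -1.42, adjusted p = 0.0974, edgeR). Dlx3 was measured at 68.0 and 44.0 CPM in Ezh2Y646N and at 357 and 97.3 CPM in NrasQ61K (log2 fold change -2.02, adjusted p = 0.132, edgeR). Gata3, needed for the inner root sheath and also present in epidermis, was measured at 461 and 538 CPM in Ezh2Y646N and at 202 and 252 CPM in NrasQ61K (log2 fold change 1.14, adjusted p = 0.0703, edgeR). Foxn1, a factor of hair shaft keratinization, was measured at 31.4 and 31.4 CPM in Ezh2Y646N and at 33.7 and 26.7 CPM in NrasQ61K, with overlapping groups.

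Markers of other cell types also differed between the groups, in either direction. All 11 tested suprabasal epidermal genes were higher in both Ezh2Y646N libraries than in both NrasQ61K libraries, against 3004 of the 14265 genes tested. edgeR called 5 of them higher (Lor, Ivl, Flg2, Hrnr and Cdsn). Without adjustment all 11 were higher in edgeR, against 7.28% of all genes, and DESeq2 called 10 higher and 0 lower. Krt10 was measured at 24868 and 16045 CPM in Ezh2Y646N and at 1650 and 4309 CPM in NrasQ61K. The 12 dermal papilla genes summed to 174 and 115 CPM in Ezh2Y646N and to 555 and 290 CPM in NrasQ61K. The largest part was Trps1, which is also among the hair regulators, at 76.7 and 62.1 CPM in Ezh2Y646N and 211 and 103 CPM in NrasQ61K. The median log2 fold change of the 12 was -1.49. Of them edgeR called 1 lower: Corin, at 2.47 and 2.21 CPM in Ezh2Y646N and 42.4 and 20.9 CPM in NrasQ61K (adjusted p = 0.0220, edgeR). Without adjustment 8 of the 12 were lower in edgeR, against 7.02% of all genes. DESeq2 called 6 lower and 0 higher, against 2.79% of all genes lower. The 8 fibroblast genes summed to 820 and 2038 CPM in Ezh2Y646N and to 4056 and 2400 CPM in NrasQ61K. Of these, edgeR called 2 lower, Dpt and Cd34 (adjusted p = 0.0418 and 0.0461, edgeR), while limma voom called 0 and DESeq2 called 4 lower. Without adjustment 6 of the 8 were lower in edgeR. The 11 melanocyte genes had a median log2 fold change of 0.19 and edgeR called 0 of them. In edgeR 1 of them, Gpnmb, had an unadjusted p under 0.05, with a log2 fold change of -1.18. With DESeq2, 1 was lower. No gene of these lists was at 0 in any library. The part of these cell types in the difference of the hair genes was not tested.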

How the data were processed

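RNA from 4 libraries of sorted mouse cells was extracted on small columns and made into libraries with a stranded total RNA kit with removal of ribosomal RNA, per the labels' protocols. The deposited values are raw read counts per Ensembl gene, with no normalization. Tools listed in the submitters' processing notes, without roles, are STAR 2.5.4b, featureCounts, Trimmomatic, edgeR and bcl2fastq 2.19, with the build GRCm38. The sources used here do not give the strand setting of the counting or the annotation release, so counts of overlapping genes and near copies are uncertain. Symbols and 1-based positions came from GENCODE M21, which held 22291 of the 22524 gene identifiers, and promoters from RefSeq on GRCm38.p6.

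The test was edgeR 4.0.16 (R 4.3.3) on these counts: filterByExpr with a minimum of 10 counts, TMM (trimmed mean of M-values) scaling, a robust quasi-likelihood fit on group with 2 residual degrees of freedom, and Benjamini-Hochberg adjustment over all genes tested, 2-sided, threshold 0.05. The code of the test was run on simulated counts with planted changes and the same dispersion for every gene. Such counts lack the uneven spread between these libraries, so the run gives no error rate for calls near the threshold. DESeq2 1.42.0 and limma 3.58.1 were alternatives. A log2 fold change is Ezh2Y646N over NrasQ61K, and its SE was derived from it and the F value. A gene with 0 counts in a group was set at 3 counts over the group. The confidence level of Wilson intervals was 95%. Near copies were measured as 50-base stretches of the annotated transcripts found in another gene. The groups came from GEO's labels. Libraries of the same number correlated at 0.141 in their deviations from the group means across genes, the labels do not say that numbers pair libraries, and the replicate number was not used in the main model.

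The genes, the gene lists and the classes were chosen with earlier results of these data known. Krtap genes were grouped by family number into high-sulfur, ultrahigh-sulfur and high glycine-tyrosine. Named genes were those past the threshold, the 3 of highest mean CPM in each class or Krtap group, the 3 of smallest p in both hair differentiation lists and the most abundant genes of cell type lists, of which those that touch a result are given. Others that are named were chosen after their values were seen.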

Additional observations from a re-analysis of the deposited data

How the results depend on the processing

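Precision was limited by 2 libraries per group and, for most Krtap genes, by counts under the filter. The 8 genes called lower became 5 with DESeq2's size factors in edgeR (RLE), 24 with no filter on low counts, 20 with DESeq2, 22 with the replicate number as a block (4.4% of all genes lower), and 2 to 17 when 1 library at a time was left out. With scaling without keratin genes, a stricter filter, limma voom or a fit that was not robust, the count was between 6 and 9. Krt75 was called in 12 of 12 alternatives, Krt35 and Krt25 in 10, Krt81 and Krt86 in 9, and Krt34, Krt83 and Krt71 in 8. No hair gene was called higher in any of them. The replicate numbers share only a label, and the block raised the genes called over the whole table to 710 higher and 627 lower, against 157 and 96 without it. Those counts were 686 and 616 with no filter and 529 and 398 with DESeq2, and 49 to 730 higher and 43 to 393 lower when 1 library was left out. Leaving out 1 library moved the median log2 fold change between -4.12 and -2.46 for the hair shaft and -3.34 and -1.70 for the inner root sheath. It moved between -3.55 and -2.66 for Krt75 and -6.48 and -3.53 for the Krtap genes. The -6.48 came without Ezh2Y646N library 1. Krtap3-1, Krtap7-1, Krtap13-1 and Krtap15 had 0 counts in the Ezh2Y646N library left, so that median rests on genes at 0 and is not a measured ratio. Changes of sign were seen for Krtap17-1 (0.13 with limma voom, 0.0266 with the block, and -0.99 to 0.82 when 1 library was left out), Krt5 (0.0015 with RLE and with DESeq2, 0.10 with limma voom, 0.082 with the block, and -0.50 to 0.77 when 1 library was left out) and Krt14 (-0.90 to 0.57 when 1 library was left out). Krt84, at 0.05 in the main test, also changed sign: without Ezh2Y646N library 2 all 30 tested genes of the set were below 0. The cause of these changes was not tested.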
